A study of Danio rerio with 25 samples.

Results

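The 6 genes described here encode cardiac myosin chains and were taken by Ensembl ID from 31901 measured genes. They are the heavy chains vmhc (ENSDARG00000079782), myh6 (ENSDARG00000090637), myh7ba (ENSDARG00000076075) and myh7bb (ENSDARG00000035322), and the light chains myl7 (ENSDARG00000019096) and cmlc1 (ENSDARG00000032976). All 6 passed the filter on low counts. The libraries came from adult zebrafish hearts that carry the transgenes sox10:CreERT2 and, as a second construct, vmhcl:loxP-tagBFP-loxP-mCherry-NTR, dissociated and sorted into tubes of 20 cells. In this line a Cre recombinase under sox10, a neural crest transcription factor gene, switches a vmhcl reporter from blue to red, so that red cells carry a history of sox10-driven recombination; CreERT2 acts only when a tamoxifen-type drug is present, and the labels do not describe its dosing. Cryoinjured hearts gave 12 tubes of red-gated cells, called CI_RFP, and 3 of blue-gated cells, called CI_BFP. Hearts without injury gave 6 red tubes (UN_RFP) and 4 blue ones (UN_BFP). All groups share the transgenes, and both gates read a reporter under the vmhcl promoter. The labels give no animal, age beyond adult, chamber, sort or time after injury, so a p-value here reflects variation among tubes alone, part of which may be technical.

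Muscle myosin is a hexamer of a pair of heavy chains, which hold the motor and the rod of the thick filament, and paired essential and regulatory light chains that stiffen and tune the lever arm. The zebrafish heart uses different heavy chains in its chambers: vmhc is the ventricular chain and myh6 the atrial chain. The light chains myl7 (regulatory, also called cmlc2) and cmlc1 (essential) are made in both chambers. myh7ba and myh7bb are the zebrafish copies of MYH7B, a slow-type heavy chain of striated muscle.

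Total counts ran from 5644279 to 11981012 per library, and 1226 to 15380 genes had a count. CI_RFP 5, UN_RFP 1 and UN_RFP 5 had 3874, 5008 and 1226 such genes, the lowest numbers. Levels are in CPM, a gene's reads relative to the TMM-adjusted total of its library, and are given as mean ± SD where a group is summarised. The ID of vmhc is listed as MYH7 in the name table, and RefSeq's annotation of GRCz12tu gives vmhc as a synonym of myh7. Its next coding gene there is myh7l, also called vmhcl, the gene whose promoter names the reporter. No ID was listed as vmhcl. Myosin heavy chain genes are close copies of each other, and how the counting treated shared reads is not known, so a low count beside a high paralogue is uncertain. Less RNA per cell and fewer cells of a type cannot be told apart in tubes of pooled cells.

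myl7 and cmlc1 had reads in all 25 libraries, vmhc in 24, myh7ba in 23, myh7bb in 19 and myh6 in 14. Together the 6 genes took between 0.0907% (CI_RFP 11) and 9.62% (CI_RFP 12) of a library's counts. The median share was 3.59% for CI_RFP and 2.71% for UN_RFP, against 0.782% for CI_BFP and 0.960% for UN_BFP. The ranges of the groups overlapped. In all 25 libraries the gene with the most counts was ENSDARG00000080337, at 7.54% (CI_RFP 11) to 49.3% (UN_RFP 5). Shares of a library's counts therefore also depend on that gene.

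**Figure D1:**
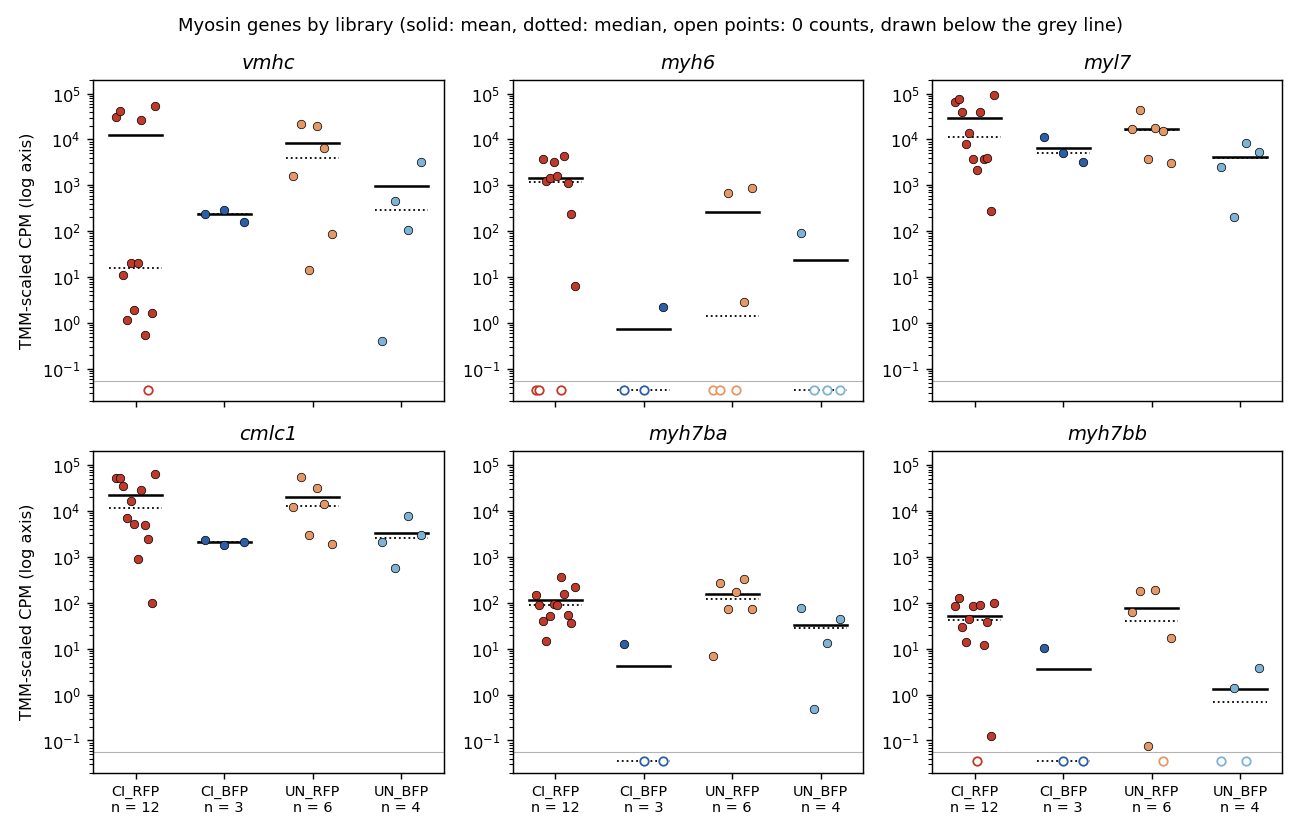
TMM-scaled CPM (log axis) of the 6 myosin genes in each library, by group, with n under each group; solid lines are means, dotted lines medians, and open points below the grey line are libraries with 0 counts. The vmhc values of CI_RFP fall into a high and a low set, with the median at 16.1 CPM, while cmlc1 of the 3 CI_BFP libraries lies in a narrow band.

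The ventricular heavy chain fell into a high and a low set within CI_RFP. There vmhc ran from 0 in CI_RFP 10 to 53551 CPM in CI_RFP 12. The CI_RFP median was 16.1 CPM, far below the mean of 12674 ± 19758 CPM, because 4 libraries carried most of the reads. In CI_BFP 1, 2 and 3 vmhc stood at 243, 297 and 162 CPM, between the high and the low set of CI_RFP. In UN_RFP the lowest library held 14.0 CPM, the median was 3992 CPM and the highest held 21771 CPM. In UN_BFP 1 to 4 vmhc stood at 0.407, 464, 107 and 3278 CPM. By median the groups ran, from high to low, UN_RFP, UN_BFP, CI_BFP and CI_RFP, and by mean CI_RFP, UN_RFP, UN_BFP and CI_BFP. The ranges of all neighbours in both orders overlapped, although no CI_RFP library lay inside the CI_BFP range: 4 lay above it and 8 below.

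In CI_RFP the 8 tubes of the low vmhc set held the most myh6, the atrial heavy chain, whereas no BFP tube held more than 92.4 CPM of myh6. myh6 had 0 reads in 11 libraries: 3 of 12 CI_RFP, 2 of 3 CI_BFP, 3 of 6 UN_RFP and 3 of 4 UN_BFP. In CI_RFP it reached 4334 CPM in CI_RFP 9, with a median of 1205 CPM. In UN_RFP the highest library held 873 CPM and the median was 1.42 CPM. UN_BFP 1 held 92.4 CPM, the 1 library of its group with any read, and CI_BFP 3 held 2.21 CPM, again the 1 of its group. The order by median was CI_RFP, UN_RFP and then both BFP groups at 0, and all ranges overlapped.

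In every tube either the ventricular or the atrial chain took most of the reads. Of all reads on vmhc and myh6, vmhc took 98.7% or more in 14 libraries and 9.05% or less in the other 11, and 0 of 25 lay between 10% and 90%. The most mixed library was UN_RFP 6, with 765 vmhc reads beside 7691 myh6 reads, a vmhc share of 9.05% (exact 95% binomial interval 8.44 to 9.68%). The next was UN_RFP 3 at 2.00% (1.73 to 2.31%). Among tubes with more vmhc, CI_BFP 3 was the most mixed, at 98.7% (97.9 to 99.2%) from 18 myh6 reads beside 1318 of vmhc. Each value is a sum over the 20 cells of a tube. vmhc had more reads in 4 of 12 CI_RFP, 3 of 3 CI_BFP, 4 of 6 UN_RFP and 3 of 4 UN_BFP libraries. Reads were not divided by transcript length. Such a division would scale the ratio of vmhc to myh6 reads by the same factor in every library. Shares of 0 or 100% would not move, and the others would move in the same direction by different amounts. Because the libraries form separate clusters, no correlation of vmhc with myh6 is given.

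Fibroblast and epicardium markers (13 IDs) moved with this pattern in the RFP gate. Their summed level lay between 0 and 69.2 CPM in the 8 RFP tubes with more vmhc than myh6. In the 10 RFP tubes with more myh6 it was 6.84 CPM in CI_RFP 5 and between 1743 and 51698 CPM in the others. The number of genes with a count lay between 1226 and 11491 in the former tubes and between 3874 and 15380 in the latter. The part of these markers and of detection in the pattern was not tested. In the BFP gate the markers summed to between 1321 and 12702 CPM, with 7342 CPM in UN_BFP 1, the 1 BFP tube with more myh6.

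**Figure D2:**
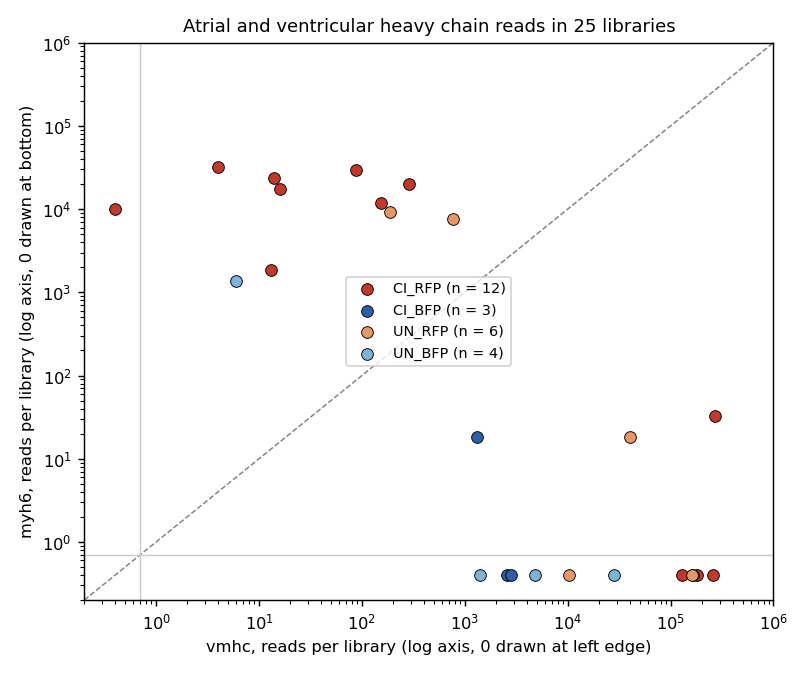
Reads on vmhc (x) and myh6 (y) in each of the 25 libraries on log axes, coloured by group, with 0 drawn outside the grey lines and equality dashed. Libraries with more vmhc hold 0 to 33 myh6 reads, and those with more myh6 hold 0 to 765 vmhc reads. In all, 11 libraries have 0 myh6 reads and 1 has 0 vmhc reads.

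A further heavy chain ID, ENSDARG00000079564, is listed as MYH6 in capitals and was singled out after its values were seen. It had reads in 18 libraries, up to 1209 CPM in CI_RFP 2, where vmhc stood at 41360 CPM and myh6 at 0. In CI_BFP 3 it held 1735 reads against 1318 of vmhc, and in CI_RFP 6 it held 259 reads against 14. Its rank order over the 25 libraries was closer to that of vmhc (Spearman rho 0.85) than was that of all but 1 of 14381 other named genes. The name table does not settle which RefSeq gene it is. A second ID under the same symbol, ENSDARG00000114031, had reads in 1 library.

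The regulatory light chain myl7 ran from 275 CPM in CI_RFP 11 to 90693 CPM in CI_RFP 12, with a CI_RFP median of 11063 CPM. In CI_BFP 1, 2 and 3 it stood at 11354, 5169 and 3191 CPM. In UN_RFP the range was 3129 to 42781 CPM with a median of 16281 CPM. In UN_BFP 1 to 4 it stood at 2548, 200, 8423 and 5353 CPM. By median the groups ran UN_RFP, CI_RFP, CI_BFP and UN_BFP, and each range overlapped that of its neighbour.

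For the essential light chain cmlc1, more CI_RFP libraries lay above all of CI_BFP than for myl7 (10 against 6 of 12). In uninjured hearts each light chain had 4 of 6 UN_RFP libraries above all of UN_BFP. In CI_RFP cmlc1 ran from 101 to 62654 CPM with a median of 11760 CPM. Of the 12 libraries, 10 lay above the highest CI_BFP library and 2 below the lowest. In CI_BFP 1, 2 and 3 it stood at 2379, 1859 and 2102 CPM, a mean of 2113 ± 260 CPM and the smallest relative spread of any of the 6 genes in any group (coefficient of variation 12.3%). In UN_RFP it ran from 1939 to 54987 CPM with a median of 13012 CPM. In UN_BFP 1 to 4 it stood at 2113, 562, 7918 and 2960 CPM. By median the groups ran UN_RFP, CI_RFP, UN_BFP and CI_BFP, with overlap between each pair of neighbours.

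The light chains moved together from tube to tube. Over 25 libraries the log2 CPM of myl7 and cmlc1 correlated with Pearson r 0.94 (adjusted p = 2e-05 by permutation) and Spearman rho 0.93 (adjusted p = 2e-05). The unadjusted p of 1e-05 is the smallest that 100000 permutations can give, and the adjustment was over 6 relations. Without UN_BFP 2 and CI_RFP 11, the libraries farthest from the median of myl7, r was 0.94. Within the RFP gate r was 0.98 over 18 libraries, and within CI_RFP it was 0.98 over 12. All values share TMM scaling and depth. They are also pooled over tubes with more vmhc and tubes with more myh6, and r within each kind was not computed. In the RFP gate myl7 lay between 15586 and 90693 CPM in the 8 tubes with more vmhc. It lay between 275 and 40455 CPM in the 10 with more myh6. The number of myl7 reads per cmlc1 read still ranged from 0.356 in UN_BFP 2 to 4.77 in CI_BFP 1, and its median was highest in CI_BFP at 2.78, against 1.32 for CI_RFP, 1.19 for UN_RFP and 1.13 for UN_BFP. The ratio was below 1 in 6 libraries, 3 of CI_RFP, 2 of UN_RFP and 1 of UN_BFP, and in 0 of the 3 CI_BFP libraries.

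**Figure D3:**
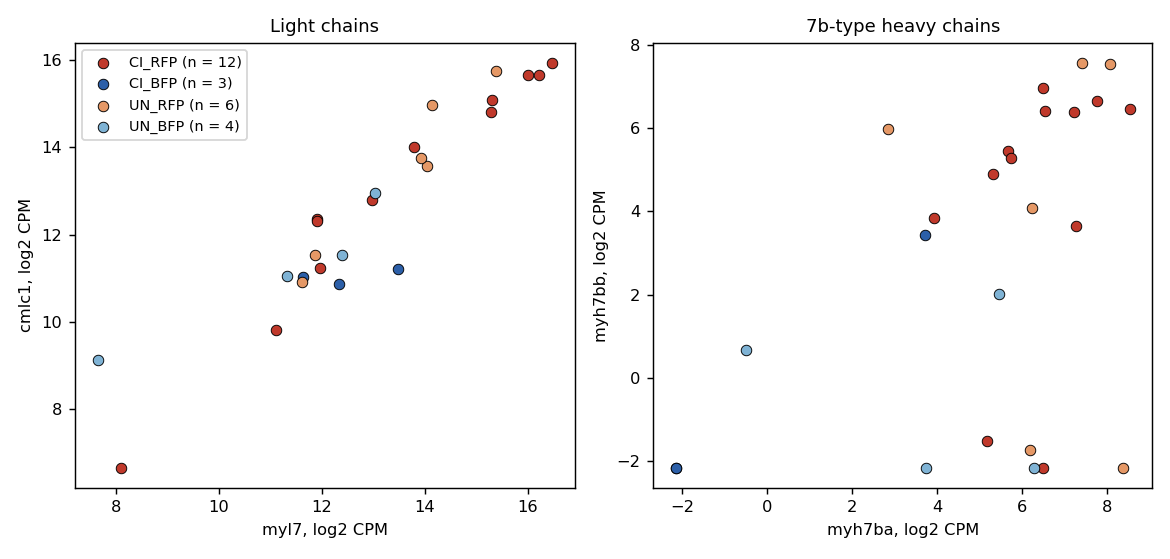
log2 CPM (prior count 2) of cmlc1 against myl7, and of myh7bb against myh7ba, 1 point per library, coloured by group. The light chains lie along a line (r 0.94, n = 25), whereas in the other pair several libraries with ample myh7ba lie at the floor of myh7bb.

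Of the slow-type chains, myh7ba was found in nearly every tube and myh7bb in fewer. myh7ba had reads in all 12 CI_RFP libraries (15.1 to 368 CPM, median 88.9), in all 6 UN_RFP libraries (6.93 to 327 CPM, median 122) and in all 4 UN_BFP libraries, at 77.2, 0.485, 13.0 and 43.5 CPM in UN_BFP 1 to 4. In CI_BFP it had 135 reads in CI_BFP 1 (12.9 CPM) and 0 in CI_BFP 2 and 3. Every CI_RFP library thus lay above every CI_BFP library, and myh7ba was the 1 of the 6 genes whose ranges did not overlap in that comparison. Ranges did not overlap for 1.83% of all genes tested there.

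myh7bb had at most 1 read in 8 libraries. In CI_RFP it ran from 0 to 124 CPM with a median of 41.2 CPM, and in UN_RFP from 0 to 189 CPM with a median of 40.0 CPM. In UN_BFP 1 to 4 it stood at 0, 1.36, 0 and 3.84 CPM, and in CI_BFP it had 111 reads in CI_BFP 1 and 0 in the others. 4 libraries had myh7ba reads and no myh7bb read, and 0 had the reverse. UN_RFP 5, for example, held 2068 myh7ba reads and 0 of myh7bb. UN_RFP 1 was the opposite case, with 45 and 411 reads. Pearson r of the pair was 0.45 over 25 libraries (adjusted p = 0.0334 by permutation) and Spearman rho 0.50 (adjusted p = 0.0170). Without CI_BFP 2 and CI_BFP 3, where both genes were at 0, r was 0.25 (p = 0.258 by permutation). Without CI_RFP 5, UN_RFP 1 and UN_RFP 5, the libraries of fewest detected genes, r was 0.59 (n = 22, p = 0.00246 by permutation) and rho 0.71. Leaving CI_BFP 2 and CI_BFP 3 out of those 22 gave r 0.46 (p = 0.0366 by permutation). Within the RFP gate r was 0.07 (n = 18, adjusted p = 0.779 by permutation) and rho 0.36 (adjusted p = 0.139 by permutation). Within CI_RFP r was 0.35 (n = 12, adjusted p = 0.310 by permutation) and rho 0.55 (adjusted p = 0.0816 by permutation). The relation thus depended on the libraries included.

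Light and heavy chain reads did not keep 1 ratio. The sum of myl7 and cmlc1 reads over the sum of the 4 heavy chains ranged from 1.36 in CI_RFP 11 to 136 in UN_BFP 3, with a median of 4.4. In CI_BFP 1, 2 and 3 it was 51.5, 23.7 and 32.3. In CI_RFP it lay between 1.36 and 19.6, with a median of 2.97, so that no CI_RFP library reached a CI_BFP library. In UN_RFP it lay between 2.55 and 17.6 with a median of 4.61. In UN_BFP 1 to 4 it was 27.4, 1.63, 136 and 2.50, so that this group held values both near the lowest and far above the highest of the RFP groups. With the IDs listed as MYH6 added to the heavy chains, the ratio of CI_BFP 3 was 14.1 and the CI_BFP and CI_RFP ranges overlapped. The ratio is a score over genes chosen with results known and was not tested. It is unaffected by scaling between libraries.

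**Figure D4:**
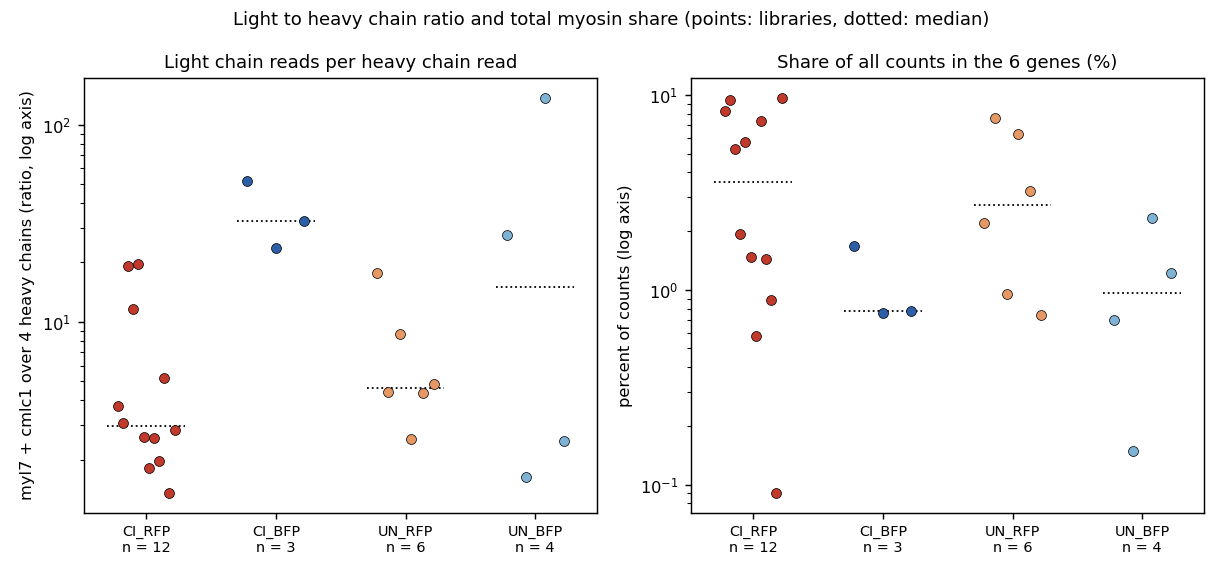
Left, reads on myl7 and cmlc1 over reads on the 4 heavy chains in each library; right, percent of all counts on the 6 genes; both on log axes, points are libraries and dotted lines medians. The 3 CI_BFP libraries lie at 23.7 or more on the left and the 12 CI_RFP libraries at 19.6 or less.

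Markers of other cells were summed in the same libraries. Leukocyte markers (13 IDs) summed to between 2037 and 11454 CPM in CI_BFP and to between 0.810 and 5880 CPM in CI_RFP, to between 54.0 and 12637 CPM in UN_BFP and between 0 and 5185 CPM in UN_RFP. Of the 13, lyz was at 0 in every group. All 11 tested leukocyte IDs had lower fitted levels in the RFP gate in both gate comparisons, and 0 passed by edgeR. At an unadjusted p under 0.05 there were 2 of 11 after injury and 0 of 11 without injury, against 9.32% and 17.8% of all genes. Positive fitted folds were found for 55.3% of all genes after injury and for 38.8% without injury. Fibroblast and epicardium markers summed to between 2090 and 12702 CPM in CI_BFP, 0 and 51698 in CI_RFP, 1321 and 7818 in UN_BFP and 0 and 3180 in UN_RFP. The highest of these, in CI_RFP 11, stood beside the lowest share of counts in the 6 myosin genes (0.0907%), so markers of cells other than cardiomyocytes were present in both gates. Endothelial markers (9 IDs) summed to between 120 and 779 CPM in CI_BFP and 0 and 362 in CI_RFP, and to between 347 and 1051 CPM in UN_BFP and 16 and 1174 in UN_RFP. Summed neural crest and glia markers (8 IDs) reached at most 58.5 CPM in a CI_RFP tube and 0.980 CPM in a CI_BFP tube. In CI_BFP 7 of the 8, SOX10 among them, were at 0 in every library. The markers reached 56.7 CPM in UN_RFP and 113 CPM in UN_BFP. SOX10 had reads in CI_RFP, UN_RFP and UN_BFP. Erythrocyte markers (6 IDs) reached 596 CPM in CI_RFP, and at most 1.17 CPM in CI_BFP, 79.6 CPM in UN_RFP and 7.14 CPM in UN_BFP. The part of these cells in the myosin differences was not tested. A list of other cardiac and skeletal myosins (13 IDs, such as myhz2, at 0 in every group, and smyhc1) summed to at most 22.9 CPM in any library. Of the 13, 5 were at 0 throughout CI_RFP, the largest group, and 10 throughout each of CI_BFP, UN_RFP and UN_BFP. The cardiac symbols vmhcl and myh7l of that list matched no ID, and its myh7 is vmhc itself. ENSDARG00000079564 lies outside this sum and reached 1209 CPM in CI_RFP 2, so the sum does not cover all other cardiac myosins.

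After cryoinjury, the gate comparison sets cells sorted as red, with a sox10 history, against cells sorted as blue. All 6 genes had positive fitted folds in CI_RFP against CI_BFP, and 0 of 6 passed the threshold by edgeR (adjusted p between 0.524 and 0.828), as did 0% of all genes tested. At an unadjusted p under 0.05 there were 3 of 6, against 9.32% of all genes. cmlc1 was higher by log2 3.40 (SE 1.42, edgeR adjusted p = 0.524), and passed without the filter on low counts (edgeR adjusted p = 0.0347). myl7 was higher by log2 2.15 (SE 1.32, edgeR adjusted p = 0.719). myh7ba was higher by log2 4.71 (SE 1.79, edgeR adjusted p = 0.524), with 12 of 12 CI_RFP libraries above all of CI_BFP. The size of this fold rests on CI_BFP 1, the 1 library of its group with reads: leaving out single libraries moved it between 4.14 and 12.95 (log2). By voom and by DESeq2 myh7ba did pass (adjusted p = 0.0113 and 0.0308). myh7bb was higher by log2 3.87 (SE 2.14, edgeR adjusted p = 0.559), with 10 of 12 libraries above all of CI_BFP, and its fold was 11.79 (log2) without CI_BFP 1. myh6 was higher by log2 10.91 (SE 5.16, edgeR adjusted p = 0.524) in 9 of 12 libraries, and passed by DESeq2 (adjusted p = 0.00576). Its size rests on 18 reads in CI_BFP 3, without which it was 16.63 (log2). vmhc had a fitted log2 fold of 5.76 (SE 3.91, edgeR adjusted p = 0.828), but 8 of 12 CI_RFP libraries lay below all of CI_BFP, and voom gave the opposite sign (log2 -2.34). The median log2 fold of the 6 genes was 4.29, beside 0.22 over all genes. With RLE size factors in place of TMM the median over all genes shifted by -0.61 (log2), and the myl7 fold was 0.99 (log2).

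In uninjured hearts the same comparison had 6 of 6 positive folds, and again 0 of 6 passed by edgeR (adjusted p between 0.122 and 0.802), as did 0% of all genes. At an unadjusted p under 0.05 there were 2 of 6, against 17.8% of all genes. Ranges were apart for 0 of 6, and for 0.929% of all genes. myh7bb was higher in UN_RFP than in UN_BFP by log2 5.86 (SE 2.15, edgeR adjusted p = 0.122), with 4 of 6 UN_RFP libraries above all of UN_BFP, and passed by DESeq2 (adjusted p = 0.0365). cmlc1 was higher by log2 2.54 (SE 1.23, edgeR adjusted p = 0.280) and myl7 by log2 2.02 (SE 1.22, edgeR adjusted p = 0.476), each with 4 of 6 libraries above all of UN_BFP. myh7ba was higher by log2 2.18 (SE 1.4, edgeR adjusted p = 0.503). vmhc (log2 3.09, SE 3.01) and myh6 (log2 3.49, SE 3.20) had adjusted p = 0.802 and 0.772 by edgeR. Without UN_BFP 4 the vmhc fold was 5.43 (log2), and without UN_BFP 1 the myh6 fold was 14.13 (log2). The median log2 fold of the 6 genes was 2.82, beside -0.43 over all genes.

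**Figure D5:**
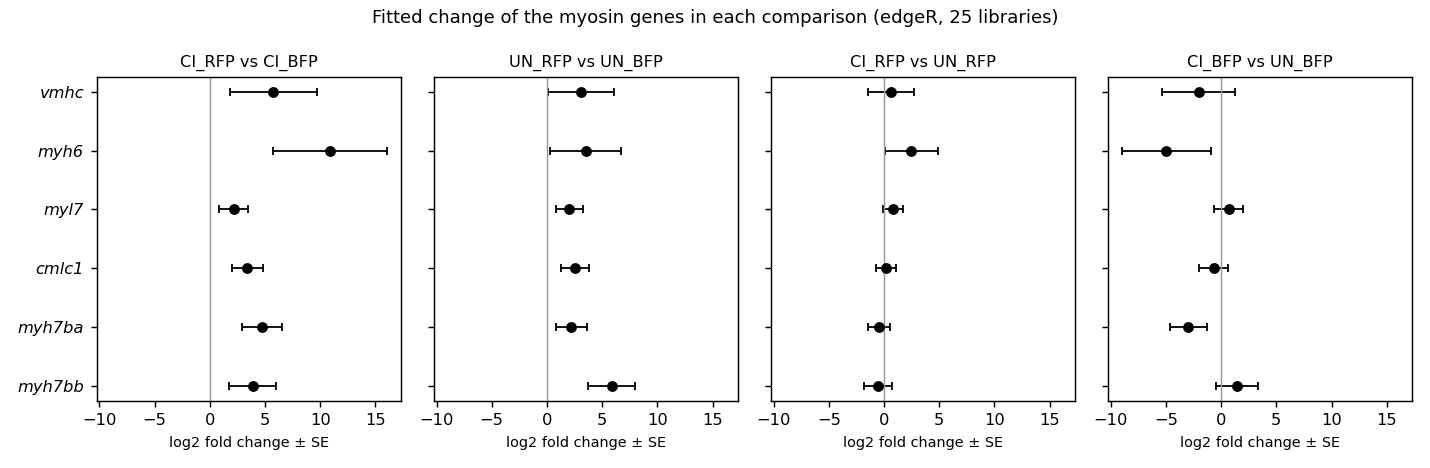
Fitted log2 fold changes with their SE (bars) of the 6 myosin genes in the 4 pairwise comparisons, from edgeR over 25 libraries. All 6 points lie above 0 in both gate comparisons, 0 passed the threshold, and the bars of vmhc and myh6 are the longest.

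Within the RFP gate, the comparison of cryoinjury with no injury gave smaller fitted folds than the gate comparisons. The groups differed in their mix of tubes: 8 of 12 CI_RFP libraries had more myh6 than vmhc reads, against 2 of 6 of UN_RFP. Each fold averages over both kinds of tube, and injury was not tested within either kind. 0 of 6 genes passed by edgeR (adjusted p between 0.822 and 0.986), where 0.0269% of all genes did, and 0 of 6 had an unadjusted p under 0.05, against 17% of all genes. Ranges were apart for 0 of 6, and for 0.0673% of all genes. voom and DESeq2 called 0 of the 6 here as well. myl7 had a log2 fold of 0.80 (SE 0.90), cmlc1 of 0.18 (SE 0.87), myh7ba of -0.44 (SE 0.98) and myh7bb of -0.55 (SE 1.23). The 95% interval of the cmlc1 fold ran from -1.52 to 1.88 (log2), so differences within that range were not excluded. Its sign turned with RLE size factors (log2 -0.24). myh6 had a log2 fold of 2.46 (SE 2.41), with 7 of 12 CI_RFP libraries above all of UN_RFP, and vmhc of 0.63 (SE 2.1). The median log2 fold of the 6 genes was 0.40, beside 0.75 over all genes.

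Within the BFP gate, 0 of 6 genes passed between CI_BFP and UN_BFP by edgeR (adjusted p between 0.693 and 1), as did 0% of all genes, and 0 of 6 had an unadjusted p under 0.05, against 9.08% of all genes. Ranges were apart for 0 of 6, and for 4.85% of all genes. voom and DESeq2 called 0 of the 6. myh7ba stood lower in CI_BFP (log2 -2.96, SE 1.70, edgeR adjusted p = 0.693), with 3 of 4 UN_BFP libraries above all of CI_BFP. Without CI_BFP 1, which leaves that group at 0 reads, the fitted fold was -11.24 (log2). myh6 (log2 -4.96, SE 4.04) rested on UN_BFP 1: without it the fold was 5.68 (log2). vmhc (log2 -2.04, SE 3.34), cmlc1 (-0.68, SE 1.34), myl7 (0.67, SE 1.32) and myh7bb (1.44, SE 1.91) lay within 1 SE of 0. The gate comparisons share no library with each other, and whether they differ was tested as an interaction of gate and injury. 0 of 6 passed by edgeR (adjusted p between 0.678 and 1), as did 0% of all genes, and 0 of 6 had an unadjusted p under 0.05, against 11.5% of all genes. The interaction of myh6 was log2 7.42 (SE 4.82), that of myh7ba 2.52 (SE 1.91) and that of myl7 0.13 (SE 1.6). Without CI_BFP 1 the interaction of myh7ba was 10.71, and without UN_BFP 1 that of myh6 was -3.22.

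Partners of myosin in the thick filament, the thin filament and the folding machinery were read from a list of 20 IDs, 19 of them tested. In CI_RFP against CI_BFP 19 of 19 had positive folds and 0 passed by edgeR (16 at an unadjusted p under 0.05), with a median log2 fold of 5.26. Over all genes 55.3% were positive, 9.32% had an unadjusted p under 0.05 and the median was 0.22. In UN_RFP against UN_BFP 17 of 19 were positive and 0 passed (11 unadjusted), with a median of 3.01. Over all genes 38.8% were positive, 17.8% had an unadjusted p under 0.05 and the median was -0.43. In CI_RFP against UN_RFP 14 of 19 were positive, and in CI_BFP against UN_BFP 3 of 19, again with 0 past the threshold in each (3 and 1 unadjusted). The former is near the background, where 69.4% of all genes were positive and 17% had an unadjusted p under 0.05. In the latter comparison 49.8% of all genes were positive and 9.08% had an unadjusted p under 0.05. TNNT2 (ENSDARG00000020610), cardiac troponin T, had the smallest p after injury. Its level was 6348 ± 5999 CPM over the 12 CI_RFP libraries and 385 ± 167 CPM over the 3 of CI_BFP. Its log2 fold was 4.04 (SE 1.14, edgeR adjusted p = 0.212). Without injury the smallest p was that of MYBPC3, a cardiac protein that binds the myosin rod, with a log2 fold of 4.11 (SE 1.17, edgeR adjusted p = 0.115). SMYD1 (ENSDARG00000009280), a methyltransferase needed for myosin assembly, was at 1.72 ± 2.31 CPM in CI_RFP and had no read in UN_RFP (edgeR adjusted p = 0.0912). The other ID listed as SMYD1, ENSDARG00000091253, did have reads in UN_RFP. In the BFP gate TNNI1 (ENSDARG00000000474), a troponin I, had the smallest p (edgeR adjusted p = 0.535), at 2.49 ± 4.98 CPM in UN_BFP (n = 4) and no read in CI_BFP. The other TNNI1 ID, ENSDARG00000052708, stood at 205 ± 42.6 CPM in CI_BFP and 461 ± 294 CPM in UN_BFP. Smooth-muscle and non-muscle myosins (10 IDs, 9 tested) had 7 positive and 0 past the threshold in CI_RFP against CI_BFP, with a median log2 fold of 1.12. In UN_RFP against UN_BFP 6 of 9 were positive with a median of 0.43.

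The genes whose rank order over the 25 libraries was most like that of each chain were found among 14381 named genes, as a description with no test, since all share the same libraries and scaling. For vmhc they were tnni4a, a troponin I gene (rho 0.91), the ID listed as MYH6 above (0.85) and pln1 (0.81). For myh6 they were TNNC1 (ENSDARG00000037539), a troponin C (0.84), FGF13 (ENSDARG00000035056), a fibroblast growth factor homologue (0.84), and EEF1A1 (ENSDARG00000039502), an elongation factor (0.82). FGF13 had reads in 10 libraries, EEF1A1 in 9 and myh6 in 14, so libraries tied at 0 enter these values. The values for vmhc and myh6 are also pooled over the separate clusters described above. tnni4a stood at 404 ± 606 CPM in CI_RFP and TNNC1 at 1357 ± 2250 CPM, each with a spread larger than its mean, as for the heavy chain it followed. For myl7 the closest were ndufa4b, a mitochondrial respiratory subunit (0.95), acte1, an actin (0.94), and actc1a, cardiac alpha-actin (0.94). For cmlc1 they were MDH2, mitochondrial malate dehydrogenase (0.97), cox4i1l, a cytochrome oxidase subunit (0.96), and TNNI1 (ENSDARG00000052708), a troponin I (0.96). For myh7ba they were RBM24 (ENSDARG00000102995), a splicing regulator of muscle (0.88), MYBPC3 (0.85) and TTN (ENSDARG00000028213), the giant spring protein titin (0.82). For myh7bb they were LMOD2 (ENSDARG00000045864), a leiomodin of the thin filament (0.89), cplx4c, a complexin (0.88), and SPTB, a spectrin (0.85). The likeness of the light chain pair itself was rho 0.93, against 0.67 for vmhc with myl7 and 0.56 for vmhc with cmlc1. Every gene named above for myl7 or for cmlc1 was closer to its chain than the light chains were to each other. The likeness of the pair was therefore not particular to light chains.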

How the data were processed

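RNA was measured in 25 Smart-seq2 libraries of 20 sorted cells each. Per the submitters' processing notes, the tools were FastQC 0.11.5, HISAT2 2.1.0 and featureCounts 1.6.0, and the build was GRCz11. The roles of the tools are not stated, and which program made the counts is not settled. Neither the annotation release nor how strand and multi-mapping reads were handled is given in the sources used here. The values the authors deposited are raw counts of reads, with no normalisation, for 31901 Ensembl genes, of which 91.5% carried a symbol in the name table used.

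After filterByExpr left 14853 genes, TMM factors were computed, and the two-sided quasi-likelihood test of edgeR 4.0.16 (R 4.3.3) was run with robust estimation. All 25 libraries entered 1 fit of 4 group means. Benjamini-Hochberg adjusted p under 0.05 over all tested genes was the threshold. The SE restates the p-value, being the size of the log2 fold change over the square root of F. The common biological coefficient of variation was 2.13. TMM factors ran from 0.465 to 1.78 and were lowest in CI_RFP 12, 2 and 1, which hold the most vmhc; a low factor raises a library's scaled CPM, and the highest, in CI_RFP 5, lowers it. DESeq2 1.42.0 and limma 3.58.1 (voom) served as alternatives, with other scalings, no filter, fewer groups and libraries left out. The fit was tested on simulated counts for CI_RFP against UN_RFP: it called most planted changes of the largest size and few or none of the smaller sizes. False calls were a larger share than the threshold allows on average. The simulated counts varied around a common mean per gene, without high and low sets such as those of vmhc. The spread given to each gene was also capped, so any gene above the cap varied less than its estimate from the data. Planted changes were not scored against a BFP group, so the simulation does not show what the gate comparisons can detect. Correlations used 100000 permutations (Python 3.11.15, scipy 1.17.1).

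A count of 0 in a library allows up to 3 reads, or 0.203 to 0.608 CPM depending on the library. The reads carry no molecular identifiers and several can stem from 1 molecule, so intervals and floors cover counting error only. Of 98 listed symbols 86 matched an ID, some after dropping a paralogue letter. The 3 genes closest in rank pattern to each member were named, and, per comparison, the partner of smallest p, since none passed. Myosin genes, lists and rules were chosen with earlier results of these data known. No sequences or transcript lengths were used here, so promoters and proteins were not analysed here. Where reads of different genes are set side by side or as a ratio, they are not corrected for length. Such values are therefore not ratios of transcript levels.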

Additional observations from a re-analysis of the deposited data

Results flagged for a closer look

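myh6 in UN_BFP 1 stood apart from the other 3 libraries of its group, at a log2 CPM of 6.53 against -2.15, the value of a library with 0 reads. The levels of the 6 genes, their 2 log2 ratios and their share of counts were checked in UN_RFP and UN_BFP for a single distant library. That made 18 checks, of which this was the 1 found. Chance flags about 1 in 20 such groups, but that rate does not apply here: the other 3 libraries are tied at 0 reads, so a library with any read beside them would be found. The same library held 6 vmhc reads beside 1363 of myh6, a vmhc share of 0.438%, while its myl7 and cmlc1 lay within the range of the group.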

How the results depend on the processing

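Of 953 alternatives for the 30 fold changes of the 6 genes, 909 kept direction and side of the threshold, 5 passed it (given with their comparisons) and 39 turned direction, in 14 of the fold changes. The number of genes called moved most. In CI_RFP against CI_BFP it was 0, and became 1 with RLE size factors, 1 with library totals only, 293 without the filter, 213 by voom, 444 by DESeq2 and 11 with only the groups compared. In UN_RFP against UN_BFP it was 0, and became 27 without the filter, 143 by voom and 806 by DESeq2. In CI_RFP against UN_RFP it was 4, and became 513 without the filter, 463 by voom, 861 by DESeq2 and 0 without CI_RFP 5, UN_RFP 1 and UN_RFP 5. In CI_BFP against UN_BFP it was 0, and became 11 by voom and 471 by DESeq2. For the interaction it was 0, and became 2 without the filter, 2 by voom and 704 by DESeq2. Leaving out 1 library gave 0 to 9 in CI_RFP against CI_BFP (9 without UN_BFP 4), 0 to 170 in UN_RFP against UN_BFP (170 without UN_RFP 6), 0 to 160 in CI_RFP against UN_RFP (160 without UN_RFP 6, 81 without CI_BFP 3) and 0 to 1 for the interaction. The cause was not tested.

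The log2 fold of vmhc turned under voom, to -2.34 in CI_RFP against CI_BFP, -4.63 in CI_RFP against UN_RFP, 1.55 in CI_BFP against UN_BFP and -6.19 for the interaction. That of myh7bb turned under voom to 1.13 in CI_RFP against UN_RFP, -0.16 in CI_BFP against UN_BFP and 1.29 for the interaction. myl7 turned to -0.091 under voom in CI_RFP against UN_RFP, and for the interaction to -0.95 with RLE size factors, -1.47 under voom and -0.95 by DESeq2. cmlc1 in CI_RFP against UN_RFP turned to -0.24 with RLE size factors, -0.38 under voom, -0.24 by DESeq2, -0.094 with only the groups compared and -0.016 without the 3 libraries of few genes. Its interaction turned to -0.071 with RLE size factors, -0.22 under voom and -0.071 by DESeq2.

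With single libraries left out, cmlc1 in CI_RFP against UN_RFP ran from -0.082 to 0.82 (log2). In CI_BFP against UN_BFP, vmhc ran from -2.46 to 0.29 (UN_BFP 4 left out), myh6 from -10.76 to 5.68 (UN_BFP 1), cmlc1 from -1.03 to 0.17 (UN_BFP 3) and myh7bb from -6.49 (CI_BFP 1) to 2.94. For the interaction, myh6 ran from -3.22 (UN_BFP 1) to 13.28, myl7 from -0.48 to 0.68 and myh7bb from -3.49 to 5.95 (CI_BFP 1). The correlation of myh7ba with myh7bb was 0.073 within the RFP gate and 0.35 within CI_RFP. Medians of light over heavy chain reads were recomputed with vmhc and myh6 alone as heavy chains, or with the IDs listed as MYH6 added. They were also recomputed with libraries left out. All these settings were chosen after seeing the data. Each median moved by less than the SD of its group, a bar that a widely spread group can hardly fail. In UN_BFP the median ran from 1.32 to 4.78 (log2) with single libraries left out. Adding the IDs listed as MYH6 also made the CI_BFP and CI_RFP ranges overlap, which this bar does not register. No paired analysis was possible because the labels name no animal or sort by which tubes of different groups could be matched. Groups of 3 and 4 libraries, tubes of 20 cells and a biological coefficient of variation of 2.13 limit what the tests can detect.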
